A study of Mus musculus with 9 samples.

Results

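The proteasome gene family was followed in D2.0R cells, a mouse mammary tumour line that stays dormant on basement membrane extract and proliferates when type I collagen is added. Members were taken as every gene symbol that begins with Psm, a letter from a to g and a digit, with pseudogenes left out, which gave 49 of the 23309 symbols in the files. One of them, Psmc3ip, is named after its interaction with Psmc3 and encodes a cofactor of meiotic recombination rather than a proteasome subunit, so it was kept in the counts and described apart. RNA was sequenced from 9 cultures of this line, 3 biological replicates (a, b and c) in each of 3 groups. The groups were cells grown for 1 day on basement membrane extract (BME day 1), for 5 days on it (BME day 5), and for 5 days on the same extract mixed with type I collagen (BME + COL1 day 5). All were kept in low-glucose, low-serum medium that held the matrix of their group, and the cells were freed from the matrix with cold EDTA buffer before extraction. The model is 1 tumour line without stroma, immune cells or a host.

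The 26S proteasome degrades proteins that carry ubiquitin chains. Its 20S core is a barrel of outer alpha and inner beta rings, in which Psmb5, Psmb6 and Psmb7 encode the proteolytic subunits, and its 19S cap has a base of ATPases that unfold substrates and a lid that removes ubiquitin. Interferon and haematopoietic origin replace the 3 proteolytic subunits by Psmb8, Psmb9 and Psmb10, which form the immunoproteasome and favour peptides for MHC class I. When proteasome capacity is short, the membrane-bound transcription factor NRF1 (gene Nfe2l1) is released and raises subunit genes together through antioxidant response elements.

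Levels are FPKM, fragments normalized for transcript length and library size, as the authors obtained them with Cufflinks. They were summed here over the transcripts of a gene. Of the 49 members, 46 averaged 1 FPKM or more across all 9 libraries and were tested with limma on log2(FPKM + 0.1), among 10497 genes with Benjamini-Hochberg adjustment. A difference is called where the adjusted p was under 0.05. The 3 not tested were Psmb9, the thymus subunit Psmb11, which stayed at or under 0.0483 FPKM, and the testis subunit Psma8, which was listed at 0 in every library. Psma3 and Psmd1 share 3309 and 12934 bases with genes of 1.17 and 0.266 FPKM on average, and whether reads were assigned by strand is not given in the sources used here. Aligned sequence over transcripts came to between 7.21 and 9.37 gigabases a library. A library of 1 group stood apart: in BME day 5 replicate b the median gene lay at -0.27 on the log2 scale from its mean over the libraries. In replicates a and c of that group it lay at -0.03 and -0.04. The luminal keratin Krt8 ranged from 395 to 1324 FPKM, Cdh1 from 15.9 to 38.0 and the basal keratin Krt14 from 9.26 to 24.4, whereas the epithelial marker Epcam reached 1.59 and the basal keratin Krt5 0.0190. Of 9 haematopoietic markers, 8 were under 0.1 FPKM in all libraries (Cd3e and Emr1 at 0), and the ninth, Cd68, lay between 0.942 and 3.44.

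Upstream sequence is shown for some of the genes that moved in opposite directions between the matrices. These are Psmb5 and Psmb6, whose levels were lower on BME at day 5, and Psmb8, which was higher. The gap between Psmb9 and the peptide transporter Tap1 is shown as well. The windows are the 250 bases before the annotated start of the most abundant transcript, read from the NCBIM37 (mm9) genome, 5′ to 3′ on the strand of the gene. They lie at chr14:55236833-55237082 on the minus strand (Psmb5), chr11:70338609-70338858 on the plus strand (Psmb6) and chr17:34334890-34335139 on the plus strand (Psmb8). Psmb9 and Tap1 start back to back on chromosome 17, and the 225 bases between them (chr17:34324276-34324500) are printed on the minus strand, so that Psmb9 begins after the final base. Capitals mark TGACNNNGC, the core of the antioxidant response element, in Psmb5 and Psmb6, TTCNNNGAA, the gamma interferon activated site, in Psmb8, and CCAAT, read here on the opposite strand, in the gap.
Psmb5: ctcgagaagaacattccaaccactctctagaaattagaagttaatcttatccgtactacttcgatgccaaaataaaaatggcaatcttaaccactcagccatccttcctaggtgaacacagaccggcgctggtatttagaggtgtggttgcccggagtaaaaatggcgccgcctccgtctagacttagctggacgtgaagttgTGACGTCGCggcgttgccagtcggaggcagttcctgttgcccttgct
Psmb6: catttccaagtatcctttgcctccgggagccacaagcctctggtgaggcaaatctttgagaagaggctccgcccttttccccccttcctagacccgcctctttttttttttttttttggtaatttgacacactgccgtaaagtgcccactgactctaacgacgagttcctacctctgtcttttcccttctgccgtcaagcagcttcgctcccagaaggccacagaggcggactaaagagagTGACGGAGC
Psmb8: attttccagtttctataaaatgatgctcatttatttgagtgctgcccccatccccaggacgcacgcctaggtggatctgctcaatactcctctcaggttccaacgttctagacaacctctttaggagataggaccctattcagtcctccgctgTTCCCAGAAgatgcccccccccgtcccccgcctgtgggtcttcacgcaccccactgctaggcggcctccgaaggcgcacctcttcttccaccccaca
Psmb9-Tap1: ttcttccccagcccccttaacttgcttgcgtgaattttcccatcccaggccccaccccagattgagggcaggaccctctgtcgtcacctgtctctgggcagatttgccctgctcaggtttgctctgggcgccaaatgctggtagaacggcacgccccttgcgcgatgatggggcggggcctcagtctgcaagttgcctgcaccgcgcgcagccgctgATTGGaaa

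Each of these letters was searched on both strands in the windows of all 10497 tested genes and of the 49 members. TGACNNNGC stood in 6 of the 31 windows of constitutive subunits (19.4%) and in 11.9% of all windows, the 6 being Psmb2, Psmb5, Psmb6, Psmc6, Psmd7 and Psmd12. TTCNNNGAA stood in 1 of the 3 immunoproteasome windows and in 5.60% of all windows. It also stood in 1 of the 31 constitutive windows (3.23%), that of Psmd3, with 2 matches. CCAAT stood in 10 of the 31 constitutive windows (32.3%) and in 36.0% of all, and the interferon-stimulated response element (GAAA, 2 bases of any kind and GAAA) stood in 3 of them (9.68%, Psmb3, Psmd4 and Psmd7), in none of the 3 immunoproteasome windows and in 2.46% of all. In each printed window a match of 1 of the 4 motifs was present, so that none overlapped another. The windows of Psmb7 and Psmb10, both lower on BME at day 5, held no match of the 4 motifs and are not printed. A relation between motif and direction was not tested. The members are spread over 16 chromosomes, and apart from the Psmb9, Tap1, Psmb8 and Tap2 cluster the neighbours on one chromosome were Psme1 with Psme2 (5912 bases apart, chromosome 14) and Psmb5 with Psmb11 (7314 bases, chromosome 14).

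The subunits differed in level within a library, and their order was similar in all of them. On the FPKM scale, which is per length, the 31 constitutive subunits spanned 46.2 to 168 FPKM in BME day 1 replicate a, from the lid subunit Psmd13 to the alpha subunit Psma5. Psmd13 was the lowest of the 31 in all 9 libraries, while the highest was Psma5, Psmb4, Psmb1 or Psma4. The Spearman correlation of the order between any pair of libraries lay between 0.862 and 0.998 over the 31 subunits, given as a description since these genes share libraries and lengths. The median level of the 14 core subunits was 1.87 to 2.00 times that of the 17 cap subunits in the BME day 1 cultures and 1.81 to 1.87 times in those of BME day 5. It was 1.67 to 1.77 times on BME + COL1, lower in each BME + COL1 culture than in any other. Over the 9 libraries the means ran from 173 FPKM for Psmb4 to 48.2 for Psmd13.

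**Figure D1:**
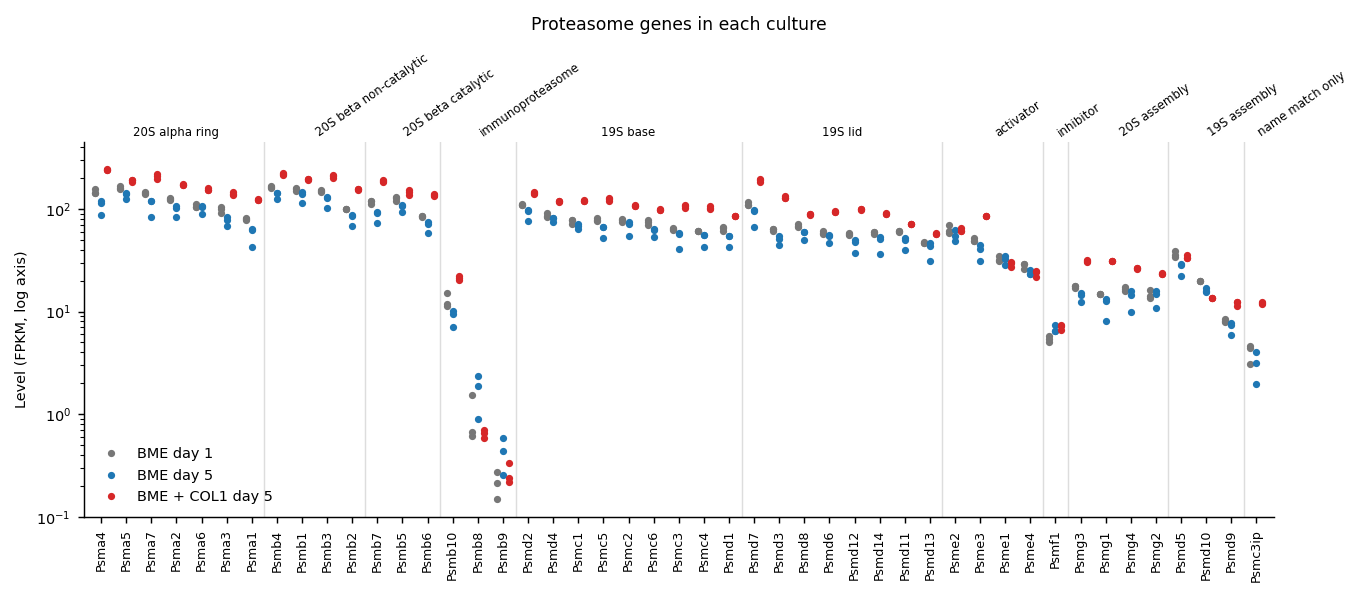
FPKM (log axis) of 47 proteasome genes in each of the 9 libraries, with 3 points a group and genes ordered by role and then by mean level; Psma8 and Psmb11 are not drawn. Constitutive subunits lie between 31.4 and 243 FPKM with BME + COL1 day 5 (red) on top, while Psmb8 and Psmb9 lie at or under 2.35.

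Between BME and BME + COL1 at day 5, the constitutive subunits with Psm names were lower on BME as a whole. All 31 constitutive 20S and 19S subunits were called lower, with log2 differences from -1.38 (Psmd3) to -0.47 (Psma5) and a median of -0.84. Of all 46 members tested, 40 were lower and 2 higher, where 45.3% of all genes tested were lower and 30.3% higher (75.6% either way). The median difference was -0.81 for the members and -0.18 for all genes. In 40 members there was no overlap between the 3 BME and the 3 BME + COL1 cultures, a pattern shown by 48.1% of all genes in that direction, and 2 members had none with BME higher, against 32.1%. The differences of the 31 subunits had an SD of 0.24 on the log2 scale, against 1.09 for all genes. The 2 values are not matched for level, since the subunits averaged 48.2 to 173 FPKM and the genes tested reached down to 1 FPKM.

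These counts depend on how the libraries are scaled, because the FPKM of a library summed to between 287610 and 423290. With each library rescaled to the same sum (TPM), 37 members were lower and 4 higher, while the split over all genes turned from 3179 higher and 4756 lower to 4858 higher and 3327 lower. The median of all genes moved from -0.18 to 0.16 and that of the members from -0.81 to -0.47. The gap between them was -0.63 under both scalings. TPM divides all genes of a library by the same factor, so apart from the pseudocount it could not change this gap. Under quantile normalization the gap was smaller, at -0.34. Expressed as a share of the summed FPKM, the quantity that TPM keeps, the 31 subunits took 0.708%, 0.717% and 0.747% of all FPKM in the BME day 5 libraries and 1.02%, 1.01% and 1.03% in the BME + COL1 libraries. On BME at day 1 they took 0.834%, 0.843% and 0.799%, between the other groups and overlapping neither. In these bulk samples fewer cells that express a gene and less RNA of it per cell cannot be told apart.

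**Figure D2:**
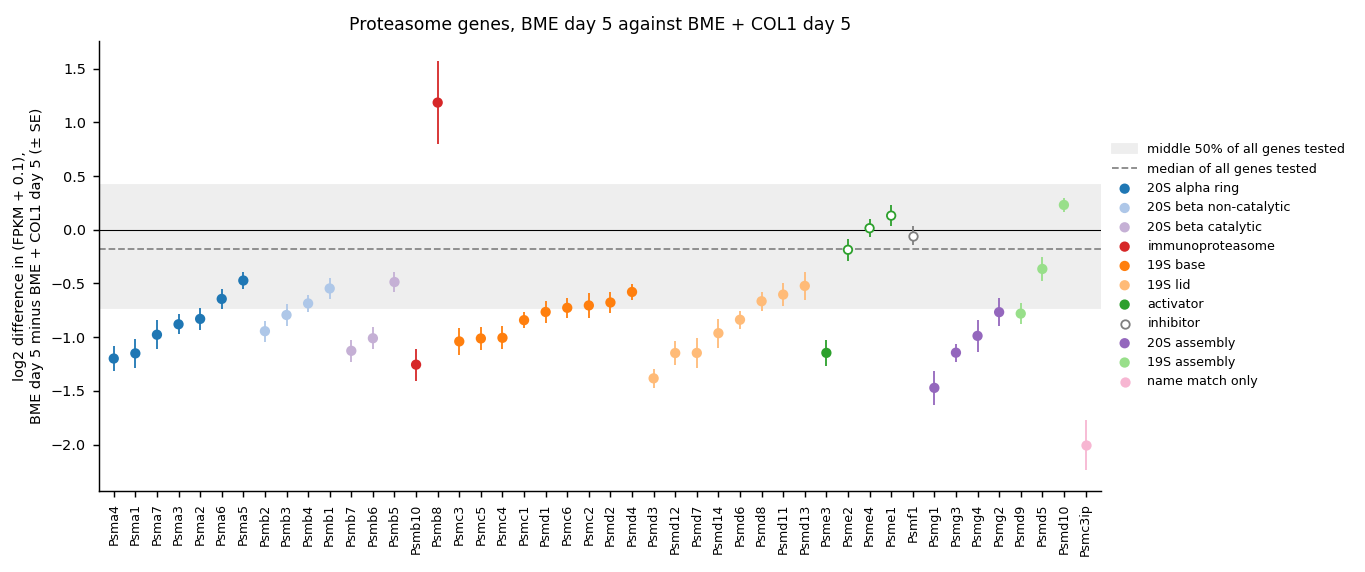
Log2 difference in (FPKM + 0.1) between BME day 5 and BME + COL1 day 5, with its standard error, for the 46 tested members; filled points were called by limma, open points were not, and the band and dashed line are the middle 50% and the median of all 10497 genes. All 31 constitutive subunits lie under the median of all genes, and Psmb8 lies at 1.18; under TPM the values shift upward and those of Psma5, Psmb5 and Psmd5 lose their call.

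In the core, the alpha ring and both kinds of beta subunit took part. Psma4, which had the largest difference of the alpha ring, was at 113, 86.8 and 118 FPKM on BME at day 5 and at 243, 239 and 241 on BME + COL1. The groups were far apart, with replicate b the lowest BME culture, and the log2 difference was -1.20 ± 0.12 (SE, n = 3 cultures a group, limma adjusted p = 1.35e-05). The 4 beta subunits without proteolytic activity, Psmb1 to Psmb4, fell between -0.94 (Psmb2) and -0.55 (Psmb1). Psma5 had the smallest difference of the ring at -0.47 and was not called under TPM (log2 difference -0.13), under quantile normalization or without genes shorter than 300 nt.

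The proteolytic subunits did not move to the same extent. The trypsin-like subunit Psmb7 was at 93.7, 73.1 and 90.7 FPKM on BME at day 5 and at 182, 187 and 191 on BME + COL1, a log2 difference of -1.13 ± 0.10 (SE, limma adjusted p = 8.89e-06). The caspase-like subunit Psmb6 was at 74.9, 57.7 and 71.7 FPKM on BME and at 137, 133 and 139.5 on BME + COL1, with a difference of -1.01 ± 0.10 (limma adjusted p = 1.68e-05). The chymotrypsin-like subunit Psmb5, the target of clinical proteasome inhibitors, was at 108, 93.4 and 109 FPKM on BME and at 144, 137 and 152 on BME + COL1. No pair of groups overlapped for these 3 genes, but for Psmb5 the difference was -0.49 ± 0.09 (limma adjusted p = 7.91e-04), and it was not called under TPM (-0.14), under quantile normalization (-0.0041) or without short genes (-0.12).

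The cap subunits with Psm names were lower in both parts of the cap. All 9 base subunits fell, from -1.04 for the ATPase Psmc3 to -0.58 for the ubiquitin receptor Psmd4, and among them the ATPases Psmc4 and Psmc5 had differences of -1.01 each and the large scaffold subunits Psmd1 and Psmd2 of -0.77 and -0.68. All 8 lid subunits with Psm names fell, with the largest difference of the 31 in Psmd3. The small lid subunit Sem1, listed as Shfm1 and not matched by the family rule, was higher on BME, at 0.40. Psmd3 was at 54.6, 44.3 and 51.2 FPKM on BME at day 5 and at 133, 129 and 129 on BME + COL1, a log2 difference of -1.38 ± 0.09 (SE, n = 3, limma adjusted p = 1.20e-06). The 2 groups were separated by more than the whole range within either. Psmd14, the metalloprotease that cuts ubiquitin chains from the substrate, was at 53.1, 35.9 and 51.4 FPKM on BME and at 91.9, 88.5 and 89.6 on BME + COL1, with a difference of -0.96 ± 0.14 (limma adjusted p = 1.43e-04). Psmd13 was not called under quantile normalization (-0.11) or without short genes (-0.15), and Psmd4 and Psmb1 not under quantile normalization.

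The chaperones that assemble the core were lower as well. All 4 of Psmg1 to Psmg4, which pair up to build the alpha ring, were lower on BME at day 5, with log2 differences from -1.47 (Psmg1) to -0.77 (Psmg2) and a median of -1.07. The 14 core subunits had a median of -0.85 and reached -1.20, and the difference between the lists was not tested. Psmg1 was at 13.2, 8.17 and 12.7 FPKM on BME and at 31.3, 30.9 and 31.05 on BME + COL1, a difference of -1.47 ± 0.16 (SE, n = 3, limma adjusted p = 2.39e-05). Its BME cultures spread by more than its BME + COL1 cultures, and did not reach them. The chaperones of the base did not move together: Psmd9 fell (-0.78), Psmd5 fell by 0.36 on the log2 scale but lay at 0.0026 without short genes and was not called under TPM, and Psmd10, also known as gankyrin, rose. Psmd10 was at 15.8, 15.3 and 16.9 FPKM on BME at day 5 and at 13.7, 13.6 and 13.6 on BME + COL1, a difference of 0.23 ± 0.06 (limma adjusted p = 0.00807), and stayed higher under every scaling tried.

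The activators that cap the core in place of the 19S particle split. Psme3, which encodes the nuclear activator PA28 gamma, was at 44.5, 31.4 and 41.0 FPKM on BME at day 5 and at 86.1, 84.4 and 85.7 on BME + COL1, a log2 difference of -1.15 ± 0.12 (SE, n = 3, limma adjusted p = 2.12e-05). Psme1 and Psme2, which encode the interferon-inducible PA28 alpha and beta, were at 32.2, 28.4 and 34.99 and at 54.6, 48.6 and 61.6 FPKM on BME, and at 30.2, 27.0 and 29.7 and at 65.3, 60.3 and 61.2 on BME + COL1. Both overlapped between the groups and neither was called (0.13 ± 0.09 for Psme1 and -0.19 ± 0.10 for Psme2, limma adjusted p = 0.229 and 0.128). Under TPM, median-ratio scaling, quantile normalization and without short genes Psme1 was called higher on BME (0.23 to 0.50), and Psme2 turned to 0.24 under quantile normalization and 0.18 without short genes (both called). Psme1 was also called higher without BME day 5 replicate b (0.21), and Psme2 was called lower without BME day 5 replicate c (-0.27). The ratio of Psme3 to Psme1, which does not depend on scaling, was 138%, 110.3% and 117% in the BME day 5 cultures and 284%, 312% and 288% on BME + COL1. At day 1 it was 157%, 156% and 150.3%, and no groups overlapped. Psme4, which encodes PA200, and the inhibitor Psmf1 were not called (0.01 ± 0.09 and -0.05 ± 0.09), but Psme4 was called higher on BME under TPM (0.36), quantile normalization (0.34) and without short genes (0.38), and Psmf1 turned to 0.31 and was called without short genes.

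**Figure D3:**
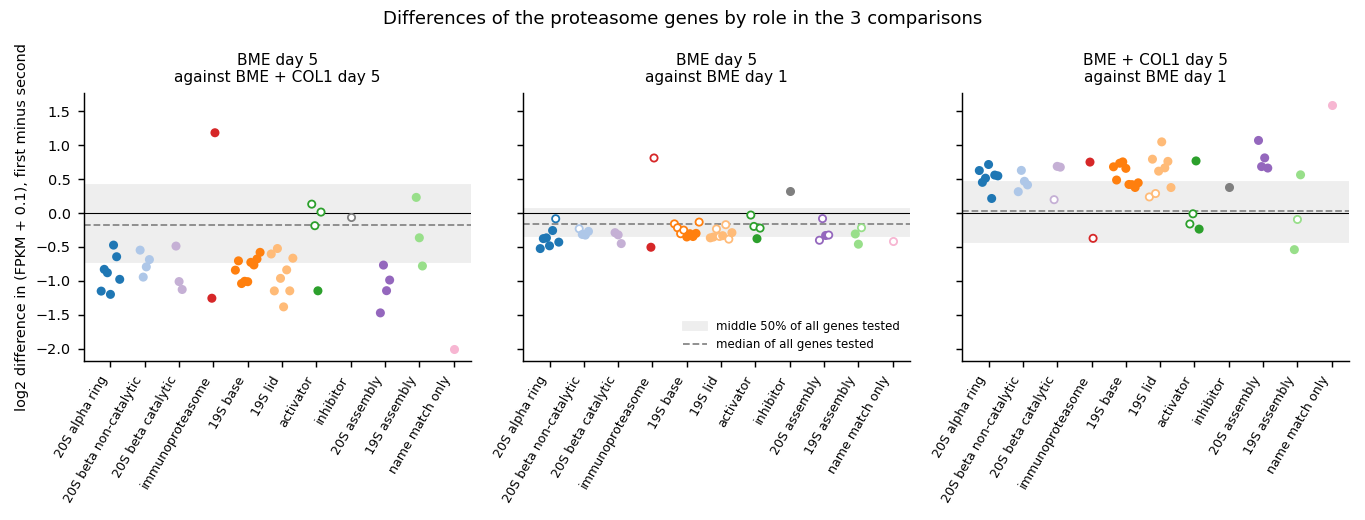
Log2 differences in (FPKM + 0.1) of the 46 tested members by role, in the 3 comparisons (left, BME day 5 minus BME + COL1 day 5; middle, BME day 5 minus BME day 1; right, BME + COL1 day 5 minus BME day 1), filled where called by limma, with the middle 50% and the median of all genes as band and dashed line. Constitutive subunits lie together in each panel, at medians of -0.84, -0.31 and 0.55, and Psmb8 lies apart from them in all 3, Psme1, Psme2 and Psme4 in the left and right panels; Psme2 turns positive in the left panel under quantile normalization and Psma5 negative in the right panel under TPM.

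The 3 immunoproteasome subunits did not behave as a unit. Psmb10 was at 9.53, 7.07 and 10.2 FPKM on BME at day 5 and at 21.3, 20.1 and 22.4 on BME + COL1, a log2 difference of -1.26 ± 0.15 (SE, n = 3, limma adjusted p = 4.77e-05), similar in direction to its constitutive partner Psmb7. Psmb8 was at 1.87, 0.907 and 2.35 FPKM on BME at day 5 and at 0.698, 0.591 and 0.651 on BME + COL1, a difference of 1.18 ± 0.39 in the other direction (limma adjusted p = 0.0183). Only in the BME day 5 group did Psmb8 average 1 FPKM or more. Its place among the tested genes, and so among the members called higher, thus rested on the group where it was high. Without the filter on low values its call was the same. The BME cultures all lay above the BME + COL1 cultures, with replicate b closest to them. This call was lost without BME day 5 replicate a (1.07, adjusted p = 0.0544), without BME day 5 replicate c (0.92, adjusted p = 0.0705), without BME + COL1 day 5 replicate b (1.13, adjusted p = 0.0531) and under quantile normalization (0.73, adjusted p = 0.131), all by limma. Psmb9, too low to be tested, was at 0.438, 0.256 and 0.588 FPKM on BME at day 5 and at 0.241, 0.217 and 0.331 on BME + COL1, so that the groups overlapped through replicate b, whose interval from Cufflinks was 0.0854 to 0.427 FPKM.

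Set against the subunit each replaces, within a library, Psmb8 and Psmb9 stood higher on BME at day 5. Psmb8 was at 1.74%, 0.971% and 2.16% of the level of Psmb5 on BME at day 5 and at 0.483%, 0.430% and 0.429% on BME + COL1. Psmb9 was at 0.584%, 0.444% and 0.821% of Psmb6 against 0.176%, 0.164% and 0.237%. Neither pair of groups overlapped in these ratios, although the levels of Psmb9 alone did. The ratios also hold the lower level of the partner on BME, with log2 differences of -1.01 for Psmb6 and -0.49 for Psmb5. The differences of the log2 ratios were 1.67 ± 0.32 and 1.51 ± 0.22 (two-sided exact permutation test p = 0.1 for both, the smallest that 3 against 3 cultures allow, and 0.257 adjusted over the 9 tests of these ratios). Psmb10 was at 10.2%, 9.68% and 11.3% of Psmb7 on BME at day 5 and at 11.7%, 10.8% and 11.7% on BME + COL1, which overlapped (exact permutation p = 0.2, adjusted 0.257). Transcripts of Psmb8 and Psmb9 thus amounted to at most 2.16% of their constitutive partners in any library, and those of Psmb10 to at least 9.43%. On BME at day 1 replicate c stood above a and b, with 1.30% against 0.465% and 0.524% for Psmb8 and 13.4% against 9.91% and 9.43% for Psmb10. Of the haematopoietic markers the 9 genes summed to 2.68 to 3.35 FPKM on BME at day 5 and to 1.06 to 1.22 on BME + COL1, almost all of it Cd68, with Cd3e and Emr1 at 0. The 5 fibroblast markers, of which 3 were under 0.1 FPKM in all libraries, summed to 19.2 to 27.0 FPKM against 4.21 to 4.34, most of it Pdgfra (17.5 to 22.6 against 2.69 to 2.74). The part of such cells in the levels of Psmb8 and Psmb9 was not tested.

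**Figure D4:**
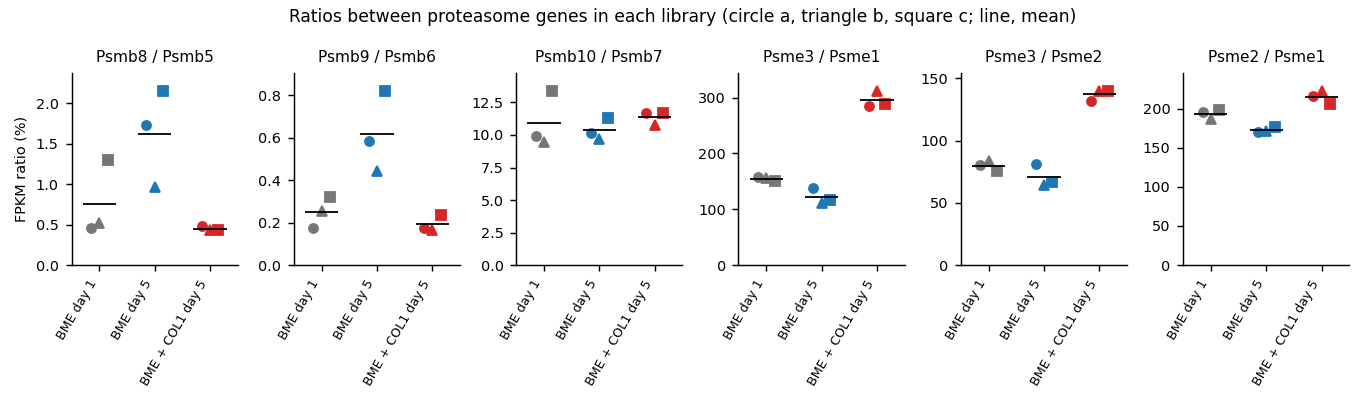
Ratio of FPKM within each library, in percent, of immunoproteasome to constitutive subunits (left 3 panels) and between the PA28 genes (right 3 panels), with cultures a, b and c as circle, triangle and square and a line at the mean of 3. Psmb8 over Psmb5 reaches 2.16% on BME at day 5 and at most 0.483% on BME + COL1, Psmb10 over Psmb7 stays between 9.43% and 13.4%, and Psme3 over Psme1 is 284% or more on BME + COL1.

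Between day 1 and day 5 on BME the constitutive subunits were lower at day 5 by a smaller amount. Of 46 members, 25 were lower and 1 higher, where 22.2% of all genes were lower and 9.09% higher, and the median difference was -0.31 for the members and -0.15 for all genes. Among the 31 constitutive subunits all differences were negative, from -0.52 (Psma1) to -0.08 (Psma6, which turned to 0.037 under TPM), and 20 were called, 12 of the 14 core subunits and 8 of the 17 cap subunits. In 36 members the 3 day 5 cultures all lay under the 3 day 1 cultures, against 37.1% of all genes, and in 1 member above them, against 12.8%. Psma1 was at 78.8, 81.4 and 77.6 FPKM at day 1 and at 61.8, 43.0 and 63.1 at day 5, without overlap, a log2 difference of -0.52 ± 0.14 (SE, n = 3, limma adjusted p = 0.0203). It was not called without day 1 replicate a (limma adjusted p = 0.0619) or b (limma adjusted p = 0.0683). The 3 proteolytic subunits fell by 0.45 (Psmb7), 0.32 (Psmb6) and 0.29 (Psmb5) on the log2 scale, of which Psmb5 was not called under TPM (-0.17), and neither Psmb5 nor Psmb6 without day 1 replicate a or b (-0.26 to -0.34) or without any 1 BME + COL1 culture.

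This count rested on which libraries shared the estimate of the spread. It was 1 when only the 6 libraries compared were fitted, beside 618 of all 10497 genes. It was 4 without BME day 1 replicate a or replicate b (1018 and 1042 genes) and 11 without replicate c (1433 genes). Without BME + COL1 replicate a it was 9 (1544 genes), and without its replicate b or c it was 10 (1558 and 1631 genes). With only the 6 libraries, and without BME day 1 replicate a or b, the members' share was not above that of all genes. In BME day 5 replicate b all 31 constitutive subunits were at their lowest of the 9 libraries. Their median deviation was -0.61 there, against -0.27 in each of the others of that group. Without this library 30 members and 2626 of all 10497 genes were lower, with medians of -0.20 and -0.07. The shares of all FPKM (0.799% to 0.843% at day 1 and 0.708% to 0.747% at day 5) did not overlap, and there replicate b lay between a and c. The other members called at day 5 were Psmb10 (-0.50), Psme3 (-0.38), Psmg3 (-0.33), Psmd5 (-0.46) and Psmd10 (-0.31), all lower, and the inhibitor Psmf1. Psmb10 and Psme3 were not called without any 1 of the BME day 1 or BME + COL1 cultures (-0.38 to -0.58 and -0.35 to -0.39), Psme3 also without BME day 5 replicate c (-0.42), and Psmg3 not without BME day 1 replicate a or b (-0.32). Psmd10 was not called under TPM (-0.19), quantile normalization (-0.16) or without short genes (-0.15). Psmf1, which encodes PI31, was at 5.79, 5.39 and 5.00 FPKM at day 1 and at 6.46, 7.42 and 6.49 at day 5, higher in all 3 cultures by a log2 difference of 0.33 ± 0.09 (limma adjusted p = 0.0221), which was not called without day 1 replicate b (0.33, limma adjusted p = 0.0679) or c (0.28, limma adjusted p = 0.0598). Psmb8 was not called (0.81 ± 0.39, limma adjusted p = 0.126), with day 1 replicate c above day 5 replicate b. It was called higher without day 1 replicate c (1.19, limma adjusted p = 0.0419), without day 5 replicate b (1.19, limma adjusted p = 0.0245) and under quantile normalization (1.19, limma adjusted p = 0.0481).

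Against BME at day 1, the cultures on BME + COL1 at day 5 had more of the constitutive subunits. This comparison shares its libraries with the others, so its values are set beside them rather than counted as further evidence. Of 46 members, 37 were higher and 2 lower, where 34.2% of all genes were higher and 31.8% lower (66% either way). The median difference was 0.55 for the members and 0.03 for all genes. Under TPM 34 members were higher and 5 lower, while the split over all genes turned from 3588 higher and 3343 lower to 2638 and 4870, and the medians became 0.33 and -0.19. In 40 members the groups did not overlap with BME + COL1 higher, against 41.6% of all genes, and in 3 with it lower, against 38.3%. Of the 31 constitutive subunits 28 were higher, led by Psmd3 (1.05 ± 0.09, limma adjusted p = 1.05e-05), and Psmb5 (0.20, -0.028 under TPM), Psmd11 (0.24) and Psmd13 (0.29) were not called. The call of Psma5 (0.22) was lost under TPM (-0.0099) and quantile normalization (-0.021), where its sign turned, without short genes (0.0047), and without any 1 of the 6 cultures compared (0.19 to 0.24).

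Psmd10 and Psme4 were the members lower on BME + COL1 than on BME at day 1. Psmd10 was at 19.8, 19.7 and 19.99 FPKM at day 1, and its log2 difference was -0.54 ± 0.06 (SE, n = 3, limma adjusted p = 7.70e-05). Its levels fell in the order BME day 1, BME day 5 and BME + COL1 day 5 without overlap between neighbours, an order that the constitutive subunits did not follow. Psme4 was at 28.8, 29.1 and 25.7 FPKM at day 1 and at 24.5, 24.9 and 21.6 on BME + COL1 (-0.24 ± 0.09, limma adjusted p = 0.0344), a call lost without replicate a or b of BME day 1 or replicate a or c of BME + COL1 (-0.17 to -0.26). All 4 core chaperones were higher, from 0.66 (Psmg4) to 1.07 (Psmg1), as were Psme3 (0.77), Psmb10 (0.75), Psmd9 (0.56) and Psmf1 (0.38, not called under TPM at 0.16 or without short genes at 0.17). Psmc3ip, the recombination cofactor, had the largest difference of all matched symbols, with 12.2, 11.9 and 12.3 FPKM on BME + COL1 against 3.06, 4.58 and 4.39 on BME at day 1 and 4.07, 1.98 and 3.15 on BME at day 5 (1.59 and, for BME day 5 against BME + COL1, -2.01).

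Genes that work with the proteasome but carry other names are given by list, and each count stands against 45.3% of all genes lower and 30.3% higher. Of 9 other components and partners, 8 were lower on BME than on BME + COL1 at day 5 (88.9%) and 1 was higher. Pomp, which completes the maturation of the core, was at 58.2, 49.7 and 67.2 FPKM on BME and at 108, 100.3 and 103 on BME + COL1 (-0.84 ± 0.11, limma adjusted p = 9.19e-05). The ubiquitin receptor Adrm1 was at 53.8, 45.7 and 51.5 FPKM against 95.3, 91.0 and 94.8 (-0.90 ± 0.08, limma adjusted p = 9.49e-06). Uchl5, the deubiquitinase that Adrm1 holds on the cap, had the largest fall at -1.83 and Usp14, a second one, fell by 0.93 on the log2 scale. Shfm1, the older symbol of the small lid subunit Sem1, was the exception, at 0.40. Of 6 tested shuttle receptors 5 were lower, led by Ubqln1 (-0.98) and Rad23b (-0.88), and Nub1 was higher (0.32). Of 6 ubiquitin and E1 genes 5 were lower, led by Uba6 (-0.73) and Uba1 (-0.58). The segregase VCP and its cofactors did not share this direction, since of 14 genes 4 were lower (28.6%), among them Faf1 (-0.71) and Nsfl1c (-0.57, -0.22 and not called under TPM), and 4 higher, among them Zfand2a (2.03) and Zfand5 (0.60).

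Transcripts of the factors that raise proteasome genes moved in the opposite direction to the subunits between the matrices. Nfe2l1 was at 75.4, 88.7 and 83.1 FPKM in the BME day 5 cultures, at 76.99, 69.8 and 66.3 in those of day 1 and at 42.9, 43.1 and 42.0 on BME + COL1. The BME + COL1 cultures lay under all others, with a log2 difference of 0.94 ± 0.09 for BME day 5 against BME + COL1 (limma adjusted p = 1.08e-05). Nfe2l3, which encodes the related factor NRF3, was at 14.8, 18.7 and 19.1 FPKM on BME at day 5, at 5.50, 6.16 and 3.64 at day 1 and at 1.84, 1.75 and 1.48 on BME + COL1, and the 3 groups did not overlap (3.30 ± 0.19 between the matrices, limma adjusted p = 6.14e-07). Nfe2l2, which encodes NRF2, was at 51.6, 58.9 and 49.4 FPKM on BME at day 5 and at 40.3, 41.7 and 38.9 on BME + COL1 (0.40 ± 0.10, limma adjusted p = 0.00467). Of the 9 genes of this list 4 were higher on BME (44.4%, against 30.3% of all genes), the other being Ngly1, and 2 lower (22.2%, against 45.3%), Mafk (-0.54) and the NRF2 repressor Keap1 (-0.25, which turned to 0.096 under TPM and 0.12 without short genes). These are transcript levels. The release and cleavage that activate NRF1 were not measured.

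**Figure D5:**
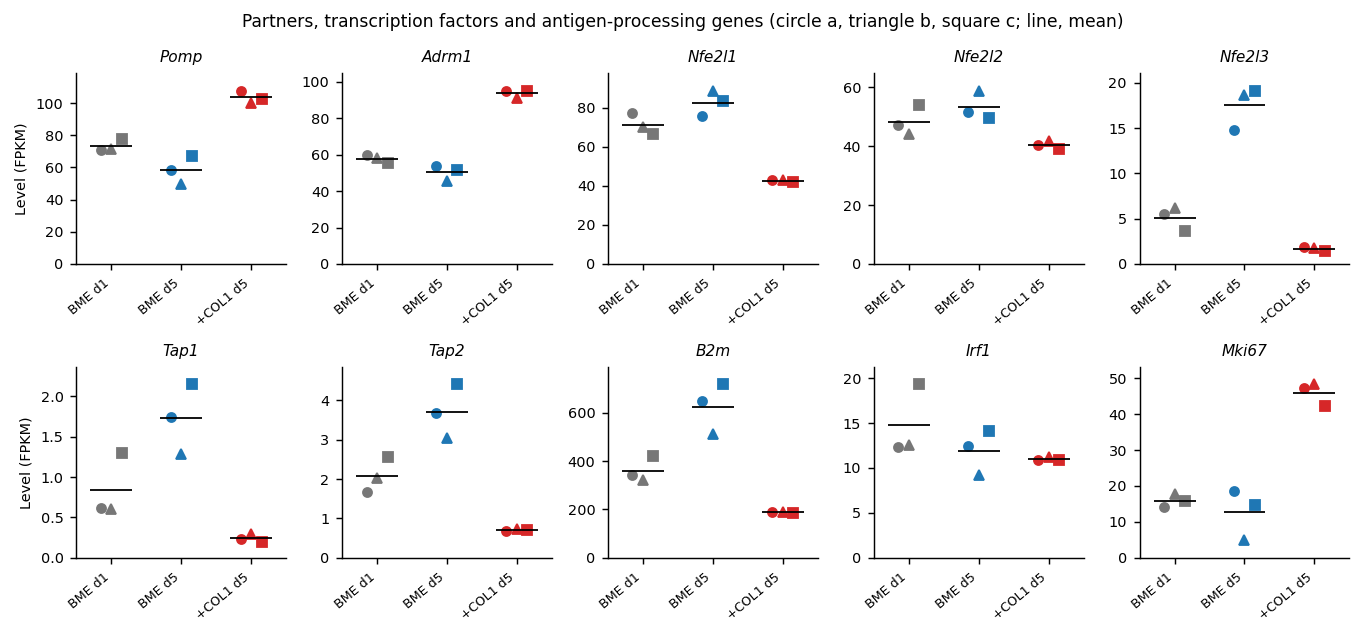
FPKM of 10 genes outside the family in each library, with cultures a, b and c as circle, triangle and square, a line at the mean of 3, and every axis from 0. Pomp and Adrm1 are highest on BME + COL1, Nfe2l1, Nfe2l2, Nfe2l3, Tap1, Tap2 and B2m are lowest there, and Mki67 is at 4.88 FPKM in BME day 5 replicate b against 18.5 and 14.6 in its group.

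Between the matrices, several genes that handle the products of the immunoproteasome moved in the direction of Psmb8. Tap1, the neighbour of Psmb9 and Psmb8 whose mean was under the limit for the test, was at 1.75, 1.28 and 2.15 FPKM on BME at day 5, at 0.617, 0.604 and 1.30 at day 1 and at 0.230, 0.296 and 0.198 on BME + COL1. Its BME + COL1 cultures lay under all others, and at day 1 replicate c stood above a and b, as it did for Psmb8. Of 9 tested class I antigen processing genes 5 were called higher in the BME day 5 cultures (55.6%, against 30.3% of all genes), led by Tap2 (2.23 ± 0.18, limma adjusted p = 3.91e-06) and B2m (1.72 ± 0.14, limma adjusted p = 4.97e-06), and 3 were lower (33.3%, against 45.3%), led by the endoplasmic reticulum chaperones Calr (-0.82) and Pdia3 (-0.76). Of 11 interferon signalling genes 9 were higher (81.8%, against 30.3% of all genes) and none lower. Irf1, which binds the promoters of these genes after interferon, overlapped between the groups, with 12.4, 9.17 and 14.1 FPKM on BME against 10.9, 11.2 and 10.9 (0.09 ± 0.19, limma adjusted p = 0.684).

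Proliferation genes moved with the constitutive subunits in the comparisons with BME + COL1. The 6 genes of the cycling list were all lower on BME at day 5 than on BME + COL1, as were 45.3% of all genes. Their summed level was 82.0 to 198 FPKM in the BME day 5 cultures, 187 to 213 in those of BME day 1 and 482 to 497 in those of BME + COL1. Mki67 was at 18.5, 4.88 and 14.6 FPKM on BME at day 5, with replicate b far under the others, and at 47.3, 48.3 and 42.3 on BME + COL1 (-2.05 ± 0.40, limma adjusted p = 0.00104). The part of cycling cells in the levels of the proteasome genes was not tested. Between day 1 and day 5 on BME none of the 6 was called, with differences from -0.95 to -0.36 (Mki67 at -0.52, and at 0.053 without BME day 5 replicate b), where 20 of the 31 subunits were.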

How the data were processed

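RNA of 9 D2.0R cultures, 3 per group, was sequenced on an Illumina instrument. The authors deposited FPKM per RefSeq transcript, written by Cufflinks among the other attributes of an annotation file on NCBIM37 (mm9), with coverage and an interval for each value. Tools listed by the submitters in their notes on processing are TopHat2 2.0.8, Trimmomatic 0.30, CASAVA 1.8.4 and Partek. Which Cufflinks release was run is not given in the sources used here. The methods name a directional library kit and the design text a different one. The study itself tested its alignments in Partek. Read counts were not used here, so no count model was fitted.

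FPKM was summed over the 30563 transcripts into 23309 symbols. The 10497 that averaged 1 FPKM or more across libraries were tested with limma 3.58.1 in R 4.3.3 on log2(FPKM + 0.1), which understates the change of low genes, with the 3 group means, 6 residual degrees of freedom, an intensity trend and Benjamini-Hochberg adjustment at 0.05. The procedure was tested on simulated data. Ratios of immunoproteasome to constitutive subunits were compared by two-sided exact permutation tests (scipy 1.17.1). Groups and replicate letters were taken from the labels, and the paper's methods call the replicates biological. Upstream windows were read from the genome of the same build. The members and gene lists were chosen with earlier results of these data known. Any member could be named, by role the largest and smallest changes first, with the catalytic pairs, activators, inhibitor and assembly factors. Of each other list up to 2 called rises and 2 called falls were named, and always Pomp, Adrm1, Nfe2l1, Nfe2l2, Tap1, Irf1 and Mki67. Some genes of these lists are not reported here. Cell type markers that check the label were named besides. Ratios among Psme1, Psme2 and Psme3 and the sums over lists were added after the values were seen. Alternatives changed the pseudocount, filter, scaling, transcript choice, libraries fitted, trend, replicate block and each library in turn.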

Additional observations from a re-analysis of the deposited data

How the results depend on the processing

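The median over the members for BME day 5 against BME + COL1 day 5 was -0.47 under TPM, -0.39 under quantile normalization and -0.44 without genes shorter than 300 nt, for BME day 5 against BME day 1 -0.19, -0.12 and -0.15, and for BME + COL1 day 5 against BME day 1 0.33, 0.35 and 0.34. Leaving out one library moved these medians from -0.87 to -0.70, from -0.37 to -0.20 and from 0.53 to 0.57. Over all genes the split of BME day 5 against BME + COL1 day 5 became 5047 higher and 3214 lower without short genes and 3790 and 4239 under quantile normalization, with 36 and 34 members lower. The number of members lower at BME day 5 than at BME day 1 was 13 under quantile normalization and 1 with only the 6 libraries compared. It was 4 to 30 when one library was left out. Over all 10497 genes tested the numbers were 2050, 618 and 1018 to 3248. Shares of all FPKM without short genes were 0.747% on BME at day 5 and 1.04% on BME + COL1. The log2 ratio of Psmb10 to Psmb7 changed sign to 0.10 (BME day 5 minus BME day 1) without BME day 1 replicate c and to -0.021 (BME + COL1 minus BME day 1) without BME day 1 replicate b, against 0.23 without replicate c.

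Genes that were called on one side and changed sign, or were called on the other side after it, were Keap1 between the matrices (0.096 under TPM, 0.12 without short genes) and between BME + COL1 and BME day 1 (-0.0095 under TPM), Psma5 between BME + COL1 and BME day 1 (-0.0099 under TPM, -0.021 under quantile normalization), and, between the matrices, Psmd5 (0.0026 without short genes), Psme2 (0.24 under quantile normalization, 0.18 without short genes) and Psmf1 (0.31 without short genes). Further differences that were not called before or after changed sign in places, among them, between the matrices, Psmf1 (0.29 under TPM, 0.038 under median-ratio scaling, 0.0044 under quantile normalization), Psme2 (0.16 under TPM) and Psme4 (-0.050 without BME + COL1 day 5 replicate c, -0.024 without BME day 5 replicate a). The causes were not tested. The correlations between same-lettered cultures of different groups lay between -0.23 and 0.096, so the letters were not taken to pair the samples. With the letters as a replicate block 40 members were lower between the matrices, beside 4713 of all 10497 genes tested. Between the days on BME 20 members were lower, beside 2061 genes. On BME + COL1 36 members were higher than at day 1, beside 3533 genes.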
